A study of Mus musculus with 2 samples.

Results

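The zinc-dependent histone deacetylases other than those of class IIa were examined in mouse peritoneal macrophages that had received an siRNA against HDAC9, itself a class IIa enzyme. The members were defined by gene family, with no threshold on measured values, although earlier results of these data were known when the family was picked: Hdac1, Hdac2, Hdac3 and Hdac8 of class I, Hdac6 and Hdac10 of class IIb, and Hdac11 of class IV. These are 7 of the 18193 genes that could be named on the arrays, and every probe set carrying the symbol of a member and no other symbol was used, 11 of 45037 in all. A probe set is a group of short probes that together report 1 transcript region.

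Peritoneal macrophages, phagocytes washed from the abdominal cavity, came from male C57BL/6 mice and were transfected either with Control siRNA (1 array) or with HDAC9 siRNA (1 array). RNA was taken 48 h later from both groups. Neither the age of the mice nor the sequence of either siRNA is given in the sources used here, nor is it stated whether RNA of several mice was pooled. An siRNA triggers breakdown of the transcript it pairs with, so HDAC9 siRNA lowers HDAC9 only in part and leaves the gene in place. The design asks which transcripts differ when HDAC9 is knocked down. With 1 array per group no test was possible, and every difference below is between 2 arrays with no spread between cultures to set it against.

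Histone deacetylases remove acetyl groups from lysines, which in chromatin generally goes with lower transcription. Class I enzymes are mostly nuclear, and Hdac1, Hdac2 and Hdac3 act inside large corepressor complexes. Class IIb enzymes are largely cytoplasmic, and Hdac11 is the lone class IV enzyme. Class IIa enzymes such as HDAC9 have little activity of their own on acetyl-lysine and are known to recruit Hdac3 with its corepressors, which ties the class I enzymes to the target of the siRNA.

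Of the 7 genes, 5 were measured on both arrays, and none of the 5 differed by more than 1.32-fold. That value was of Hdac2, lower on the HDAC9 siRNA array, which is called the knockdown array below. Hdac8 crossed the background level on the HDAC9 siRNA array alone, and Hdac11 stayed below it on both. No member passed 2-fold, against 1.78% of the 12050 genes above background, so a count of 0 among 6 genes is near the background share.

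Signals are the deposited log2 values. The background floor, log2 6.34 or a linear signal of 80.9, is the 95th percentile of 80 probe sets for olfactory and vomeronasal receptors, which are genes of sensory neurons. Signals under the floor were raised to it before a difference, HDAC9 siRNA minus control, was taken. A difference with 1 signal at the floor is therefore a bound. Differences are also set against the probe set scatter, 0.29 log2 units. For 5671 genes with several probe sets, the differences of the 2 brightest were subtracted from each other; the scatter is the standard deviation of the result over the square root of 2, and it holds no variation between cultures. Dim probe sets exceeded this single scatter more often than bright ones. Of probe sets above the floor on at least 1 array, 54.3% with a mean of 7 to 8 log2 units did, against 22.6% at 10 to 11. Signals of different probe sets depend on their probes, so no member is ranked by level against another.

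**Figure D1:**
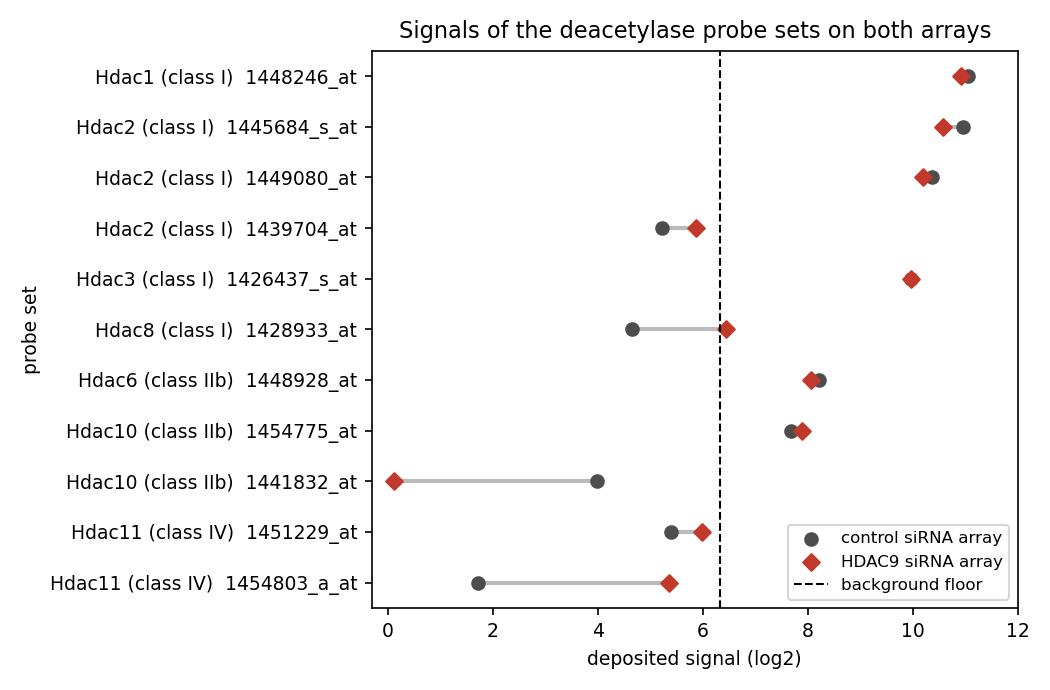
Deposited log2 signal (x axis) of each of the 11 probe sets of the class I, IIb and IV deacetylases on the control siRNA array (grey circles) and the HDAC9 siRNA array (red diamonds), joined by a grey line; the dashed line is the background floor at 6.34. The 6 probe sets to the right of the floor have nearly overlapping signals. The wide gaps of Hdac10 and Hdac11 lie below the floor, and that of Hdac8 crosses it.

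Hdac1 and Hdac2 are close relatives that form the catalytic core of the NuRD, SIN3 and CoREST complexes. The probe set of Hdac1, 1448246_at, read 11.06 log2 units on the control and 10.92 on the knockdown array. Hdac1 was thus 1.10-fold lower (log2 difference -0.14), well within the scatter.

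Hdac2 was read by 3 probe sets. The brightest, 1445684_s_at, read 10.96 log2 units on the control and 10.57 on the knockdown array, a difference of -0.40. Its name ends in _s_at, which marks probes shared by several transcripts. The next, 1449080_at, read 10.37 on the control and 10.20 on the knockdown array, a difference of -0.17 that is within the scatter. Both pointed the same way, as did 61.1% of all genes with a pair of probe sets above the floor. The remaining probe set, 1439704_at, was below the floor on both arrays, at 5.22 and 5.87, and gave no difference.

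The -0.40 of Hdac2 was the only value larger than the scatter among members measured on both arrays. Of all genes above the floor, 34.3% exceeded the scatter in either direction (12.1% downward). Among probe sets with a mean signal between 10 and 11 log2 units, where this probe set lies, 22.6% exceeded the scatter in either direction. The 5th percentile of their differences was -0.37, so Hdac2 sat just outside it. When probe sets of the _s_at, _x_at and _a_at types were left out, Hdac2 was represented by 1449080_at and its difference was -0.17.

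Hdac3, the catalytic subunit of the NCoR and SMRT corepressors, is required for much of the inflammatory gene programme of macrophages. Its probe set, 1426437_s_at, read 9.96 log2 units on the control and 9.97 on the knockdown array. The difference of 0.01 was the smallest of any member measured on both arrays, and it turned to -0.01 after quantile normalization or loess and to -0.13 after centring on the median. The class I enzyme most directly linked to HDAC9 thus had nearly the same signal on both arrays. Its only probe set is of the _s_at type, so Hdac3 had no value when the _s_at, _x_at and _a_at types were left out.

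Hdac8 works outside these complexes and removes the acetyl group from the cohesin subunit Smc3. Its probe set, 1428933_at, read 4.65 log2 units on the control array, below the floor, and 6.45 on the knockdown array, just above it. The linear signals were 25.2 and 87.4. Only a bound follows, with Hdac8 at least 1.08-fold higher (0.11 log2 units) on the HDAC9 siRNA array in the deposited scaling. The bound was 0.02 after quantile normalization or centring and 0.03 after loess.

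How large the Hdac8 difference appeared depended on the floor. With a floor at the receptors' 75th percentile, Hdac8 was higher by at least 1.17 log2 units and was the 1 member past 2-fold. Of the 15091 genes above that lower floor, 5.73% passed 2-fold. At the receptors' 99th percentile Hdac8 was below background on both arrays. Of all probe sets below the floor on the control array, 11.3% were above it on the HDAC9 siRNA array, so such a crossing was not rare.

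**Figure D2:**
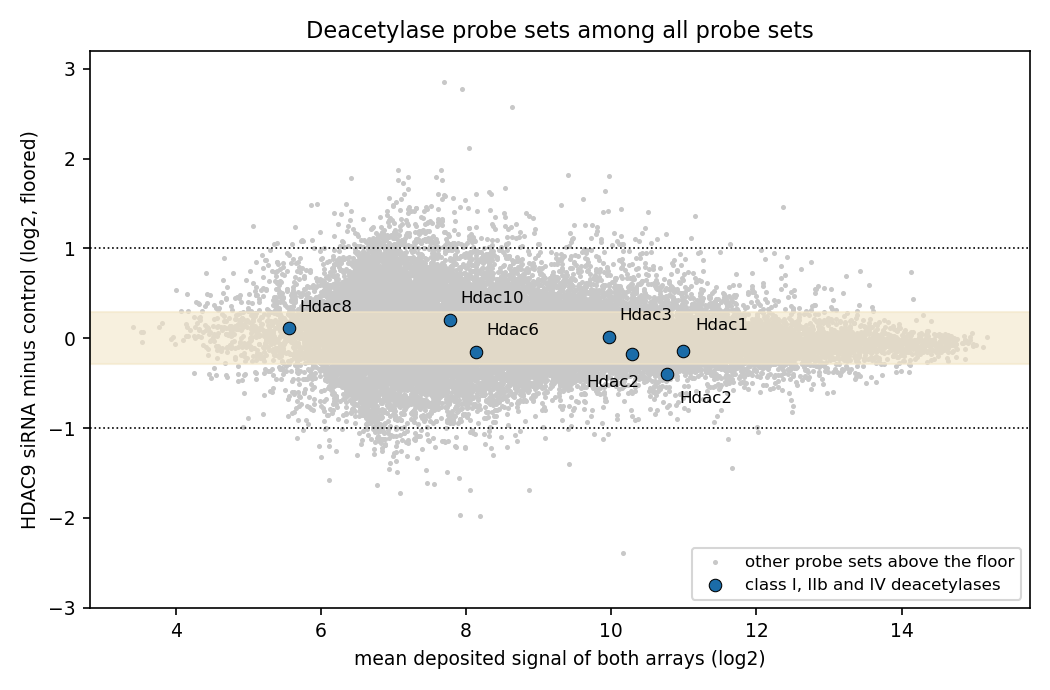
Difference between the arrays (HDAC9 siRNA minus control, log2, signals below the floor raised to it; y axis) against the mean deposited log2 signal (x axis) for all 25621 probe sets above the floor on at least 1 array (grey) and the 7 such deacetylase probe sets (blue, named). The shaded band is the probe set scatter of 0.29 either side of 0 and dotted lines mark 2-fold; only the brighter Hdac2 probe set lies outside the band.

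Hdac6 deacetylates alpha-tubulin, cortactin and the chaperone HSP90 in the cytoplasm and binds ubiquitin. Its probe set, 1448928_at, read 8.21 log2 units on the control and 8.05 on the knockdown array. Hdac6 was 1.11-fold lower (-0.15), within the scatter.

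Hdac10, which removes acetyl groups from polyamines, had 2 probe sets. The brighter, 1454775_at, read 7.68 log2 units on the control and 7.88 on the knockdown array, 1.15-fold higher (0.21). This was the largest upward difference among members measured on both arrays, and it too was within the scatter. It was 0.12 after quantile normalization, 0.11 after loess and 0.06 after centring.

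The other Hdac10 probe set, 1441832_at, was below the floor on both arrays, at 3.99 on the control and 0.13 on the knockdown array. Taken without the floor these log2 signals differ by -3.86, a large number made of linear signals of 15.9 and 1.09, both far under 80.9. It runs against the brighter probe set of the same gene.

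Hdac11 removes long fatty acyl groups from lysines and is known as a repressor of the cytokine gene Il10 in antigen-presenting cells. Neither of its probe sets reached the floor. Probe set 1451229_at read 5.41 log2 units on the control and 5.99 on the knockdown array, and 1454803_a_at had 1.72 and 5.37. No difference is given for Hdac11, although without the floor the latter would be 3.64. A signal below background does not show that the transcript was missing.

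Gaps of this kind were common among dim probe sets. Of the 19416 probe sets below the floor on both arrays, 49.1% differed by at least 2-fold when no floor was used, and the 5th and 95th percentiles of their differences were -2.91 and 3.28. Of the 4 such member probe sets, those of Hdac10 and Hdac11 with the widest gaps lay outside these percentiles, in opposite directions. The other two, of Hdac2 and Hdac11, differed by 0.65 and 0.59.

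Promoter sequence was compared as a feature that the choice of members did not use. Promoter windows of 300 bases in RefSeq's mouse assembly GRCm38.p6 were found for 4 of the 7 members, Hdac2, Hdac6, Hdac8 and Hdac11. The dinucleotide CG, whose density marks promoters of widely expressed genes and which reads the same on both strands, occurred 36 times in the window of Hdac2, 20 times in that of Hdac6, 22 times in that of Hdac11 and 6 times in that of Hdac8. The median over 32851 windows was 7, and 6.23% of them held at least 36, 26.5% at least 20, 23.1% at least 22 and 56.4% at least 6. Hdac11, below the floor on both arrays, thus had about as many CG sites as Hdac6, which was measured on both.

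That pair is shown because it contrasts a detected with an undetected member. The stretches are the parts of the windows that lie upstream of every RefSeq model of the gene, 92 bases at chrX:7948048-7948139 (minus strand) for Hdac6 and 105 bases at chr6:91156565-91156669 (plus strand) for Hdac11, written 5′ to 3′ with each CG in capitals.
Hdac6: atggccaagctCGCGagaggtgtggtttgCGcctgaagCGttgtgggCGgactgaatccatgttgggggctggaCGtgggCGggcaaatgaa
Hdac11: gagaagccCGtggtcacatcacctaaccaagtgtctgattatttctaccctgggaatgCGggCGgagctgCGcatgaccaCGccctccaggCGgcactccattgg
The stretch of Hdac6 holds 7 CG sites and that of Hdac11 holds 6. These letters describe the genes and were not measured on the arrays.

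Within the deacetylase family, the members measured on both arrays stood beside larger differences of Hdac9 and Hdac7 in the siRNA target's own class. Hdac9 itself was near background: probe set 1434572_at read 6.88 log2 units on the control array and, below the floor, 5.69 on the knockdown array, at least 1.46-fold lower. Its other probe set, 1421306_a_at, was below the floor on both, with nearly the same signal (5.99 on the control and 5.94 on the knockdown array). A lower Hdac9 signal is thus seen only as a bound from 1 probe set, and the share of all probe sets that fell below the floor in this way was not computed. With the higher floor, at the 99th percentile, Hdac9 was below background on both arrays.

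Hdac7, another class IIa enzyme, was 1.68-fold higher on the HDAC9 siRNA array (7.96 against 8.70 log2 units), with 0.55 from its other probe set. The differences of Hdac4 and Hdac5 were 0.19 and 0.22, close to the value of Hdac10. The range of the 5 members measured on both arrays, from -0.40 to 0.21, therefore lay below Hdac7, while Hdac4 fell within it. Whether the classes differ could not be tested with 1 array per group.

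Among the NAD-dependent sirtuins, a separate family of lysine deacylases, all 7 genes were above the floor. Sirt4 was past 2-fold (1.30), Sirt2 was at -0.30, just beyond the scatter, Sirt1 was at -0.27 and Sirt6 at 0.25. Of the 6 members above the floor, 1 exceeded the scatter, as did 2 of 4 class IIa genes, 2 of 7 sirtuins and 34.3% of all genes above the floor. Counts this small do not set any of the classes apart from that share. The median was -0.06 for the members with the bound of Hdac8 taken as its value, and -0.14 for the 5 measured on both arrays. It was 0.20 for class IIa, where Hdac9 is a bound, and -0.11 for the sirtuins, against 0.03 for all genes above the floor.

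**Figure D3:**
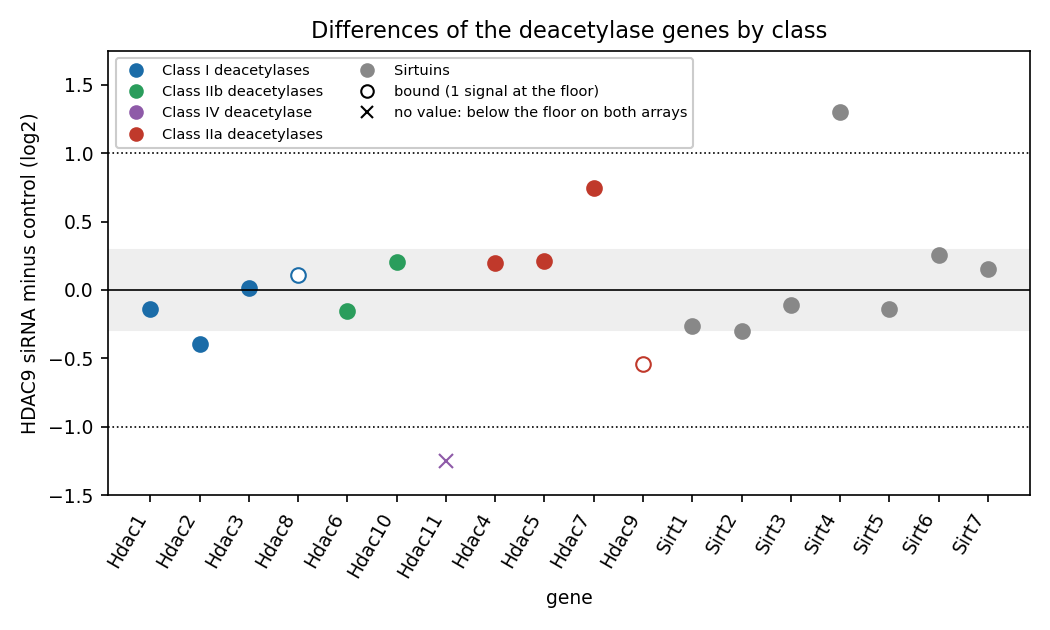
Log2 difference (HDAC9 siRNA minus control, y axis) of each deacetylase gene by its brightest probe set, coloured by class; open circles are bounds, and the cross at the bottom marks Hdac11, which has no value because it was below the floor on both arrays. The grey band is the probe set scatter of 0.29 and dotted lines mark 2-fold. Hdac7 at 0.75 and Sirt4 at 1.30 stand above the 5 members measured on both arrays, which run from -0.40 to 0.21. Hdac8, a bound of at least 0.11, cannot be placed against them.

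Hdac1, Hdac2 and Hdac3 need partner subunits for activity and targeting. Of 46 listed genes of the NuRD, SIN3, CoREST, NCoR/SMRT and MiDAC complexes, 39 were above the floor and 0 passed 2-fold. Beyond the scatter, 11 were higher (22.1% of all genes were) and 2 lower (12.1%). Their median of 0.08 compares with 0.03 for all genes. Centring on the median moved that of all genes to -0.12, and those of NuRD and CoREST, above 0 otherwise, to -0.01 and 0.00.

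In NuRD, which couples deacetylation to nucleosome remodelling, 4 of 12 genes were higher beyond the scatter and 0 lower, with a median of 0.14. The largest differences were in Mta2, a scaffold that binds Hdac1 and Hdac2, at 0.72 (9.12 log2 units on the control and 9.84 on the knockdown array), Gatad2b at 0.50, Mta1 at 0.43 and Mbd3 at 0.29. Mbd3 fell within the scatter after quantile normalization (0.27), loess (0.26) and centring (0.14). Mta1 did so as the median of its probe sets (0.26) and after centring (0.28). The remodelling ATPase Chd4 and the histone chaperones Rbbp4 and Rbbp7, named after their values were seen, were at -0.02, 0.10 and -0.02.

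In the SIN3 complex the median was -0.09, with 3 of 12 genes higher beyond the scatter and 1 lower. These were Sap130 (0.39), the scaffold Sin3a (0.38), the histone-mark reader Ing2 (0.37) and, lower, Suds3 (-0.30). Sin3a was at -0.19 when the shared-probe types (_s_at, _x_at and _a_at) were left out, and with each gene taken as the median of its probe sets the complex was at 0.12, so neither direction held under every setting.

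In the CoREST complex, which joins Hdac1 and Hdac2 to the histone demethylase Kdm1a, 4 of 10 genes were higher beyond the scatter and 1 lower, with a median of 0.15. Zmym3 was at 0.49, Phf21a at 0.37, Hmg20b at 0.36, Gse1 at 0.30 and Zmym2, named as the lower gene after its value was seen, at -0.29. Zmym3 was at 1.25 when the same types were left out, and Phf21a was at 0.00 as the median of its probe sets. The 3 NCoR/SMRT subunits above the floor, Tbl1x (0.08), Tbl1xr1 (0.08) and Gps2 (-0.20), were within the scatter, as Hdac3 was. Of the MiDAC complex, Dnttip1 was at 0.06 and Mideas at -0.14.

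Substrates and pathways of the other members were read in the same way. Of 12 cohesin genes and cohesin regulators, the setting in which Hdac8 acts, 11 were within the scatter, and the median was 0.03. The cohesin release factor Wapl was at 0.27, and Nipbl, which loads cohesin, was at 0.18. Esco2, an acetyltransferase that modifies Smc3, read 6.69 on the control array and was below the floor on the knockdown array (a bound of -0.35). Pds5a was at -0.15.

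Of 8 HDAC6 substrates and partners above the floor, 6 were within the scatter and the median was -0.09, or 0.14 with each gene taken as the median of its probe sets. The largest differences were in the tubulin acetyltransferase gene Atat1, whose product opposes Hdac6 on alpha-tubulin (0.54), and in Cttn, which encodes cortactin (0.41). Tuba1a, an alpha-tubulin gene, was at -0.24, and Tuba4a at -0.12.

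Of 7 polyamine genes above the floor, 2 exceeded the scatter, in opposite directions. Smox, which encodes the enzyme that oxidizes spermine, read 9.79 log2 units on the control and 9.03 on the knockdown array (-0.76, 1.69-fold lower). Srm, which encodes spermidine synthase, was at 0.55, and Oaz2 and Azin1 were at 0.16 and -0.14. The list's median was 0.00.

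The Hdac11-linked genes were both lower on the HDAC9 siRNA array. Shmt2, a mitochondrial serine hydroxymethyltransferase whose acyl group Hdac11 removes, was at -0.43 (9.53 against 9.10 log2 units). Il10 read 6.74 on the control array and, below the floor, 5.94 on the knockdown array (a bound of -0.40). Hdac11 itself gave no value to set beside them.

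Enzymes that add acetyl groups and proteins that read them differed by small amounts. Of 12 lysine acetyltransferase genes, 9 had a difference above 0, as did 54% of all genes above the floor, and 3 were higher beyond the scatter against 1 lower. The related coactivators Ep300 and Crebbp were both at 0.43, Ncoa1 was at 0.40 and Kat5 at -0.33, or -0.02 as the median of its probe sets. Of 11 bromodomain genes, which encode readers of acetyl-lysine and chromatin factors around them, 10 were above 0 and 4 were higher beyond the scatter, among them Brd2 (0.47), Brpf3 (0.46), Brd1 (0.35) and Bptf (0.33). Brpf3 was at 0.02 as the median of its probe sets. The medians were 0.17 for acetyltransferases and 0.14 for bromodomain genes, or 0.02 and -0.01 after centring, and 0 genes in either list passed 2-fold.

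Genes often raised by deacetylase inhibitors differed in direction. Of 5 above the floor, Gadd45b was at 0.45 and the cell cycle inhibitor gene Cdkn1a at 0.30, while Txnip was at -0.35 and Clu at -0.25. The median was 0.03, that of all genes.

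**Figure D4:**
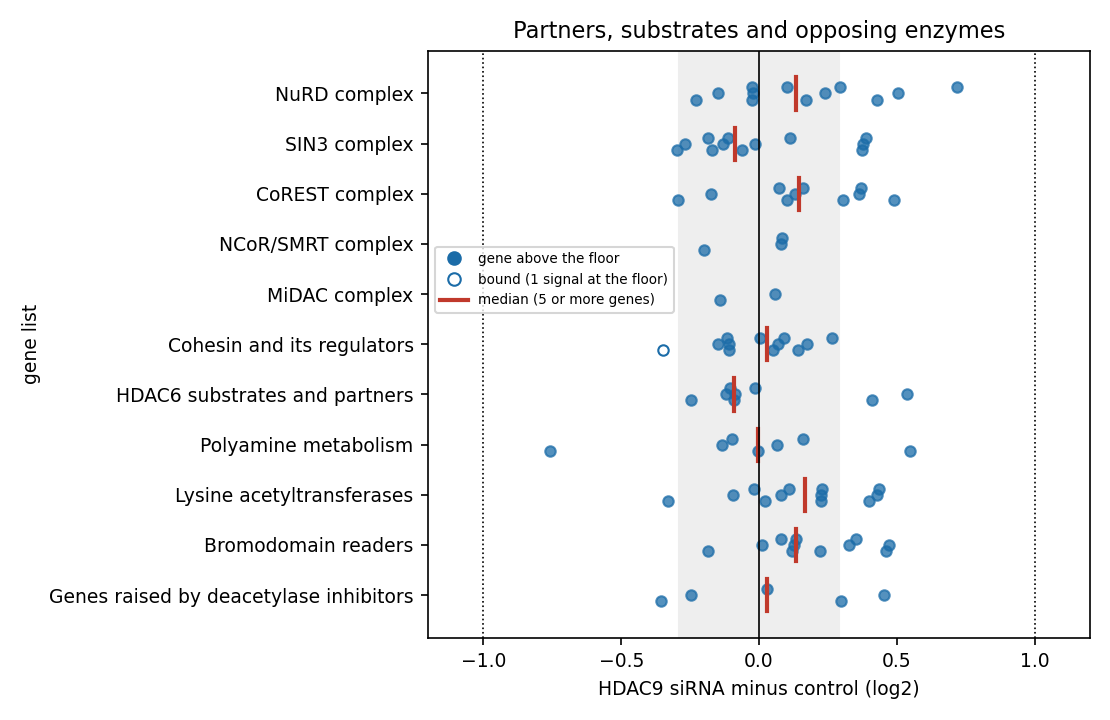
Log2 difference (HDAC9 siRNA minus control, x axis) of each gene above the floor in 11 lists of deacetylase partners, substrates and opposing enzymes; open circles are bounds, red bars are medians of lists with 5 or more genes, the grey band is the probe set scatter of 0.29 and dotted lines mark 2-fold. No gene reaches 2-fold; the farthest points are Smox at -0.76 and Mta2 at 0.72.

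The cell type label was checked on the same arrays. All 9 macrophage markers were above the floor on both arrays (median 0.00). The largest differences were in Cd14 (-0.46), Fcgr1 (0.43), Mertk (0.37) and Csf1r (-0.15). Of 6 markers of large peritoneal macrophages 4 were above the floor on both arrays. Gata6 (0.46), Icam2 (0.40) and Selp (0.37) were higher and Cd9 (-0.25) was lower. Timd4 and Alox15, named after their values were seen, were below the floor on both. Markers of other cells were present as well. All 7 fibroblast markers were above the floor on both arrays, with a summed linear signal of 39655 (control) and 53452 (knockdown), and they did not all point one way. Col1a1 (1.80) and Col3a1 (1.46) were past 2-fold, Lum was at 0.58, Col1a2 at 0.43 and Dcn at 0.13, while Pdgfra was at -0.10 and Pdgfrb at -0.18. All 8 mesothelial markers were above the floor too, with sums of 9273 and 10622, and 3 had a difference above 0 and 5 below it. The sums depend most on Upk3b, the brightest of the list (12.46 and 12.70 log2 units), while the list's median difference was -0.17. Lrrn4 was at 0.56, Wt1 at 0.44 and Upk3b at 0.24, while Msln was at -1.11, Krt7 at -0.99 and Krt18 at -0.44. Msln was just above the floor on the knockdown array, and with the floor at its higher setting its difference was a bound of -0.57, short of 2-fold.

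Blood cell markers were sparser. Above the floor on at least 1 array were 2 of 6 T cell markers, Cd8a with a bound of -0.79 and Thy1 at -0.72. Cd3d, Cd3e and Cd3g, also named after their values were seen, were below the floor on both arrays. For B cells 1 of 5 markers was above it on at least 1 array (Pax5, a bound of 0.40), and for NK cells 1 of 4 (Prf1 at 0.07). For neutrophils 3 of 4 were (Csf3r at 0.45, Mmp8 at 0.10 and S100a8 at -0.22), and for mast cells 0 of 5. Summed linear signals without the floor, control first, were 408 and 261 for T cells and 176 and 219 for B cells. They were 147 and 224 for NK cells and 1277 and 1366 for neutrophils. Most T, B and NK cell markers were below the floor, so their sums do not show a difference between the arrays. No sum is given for mast cells, whose markers were all below the floor on both arrays. The part of the fibroblast or other cells in the differences above was not tested. In such a mixed sample a smaller share of a cell type and less RNA per cell cannot be told apart.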

How the data were processed

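Gene expression was measured on 2 Affymetrix arrays, 1 per group. The authors deposited 1 log2 signal per probe set and array. Per the submitters' processing notes they come from MAS5, with version, scaling target, detection calls and genome build not given in the sources used here. As stated in the labels' protocols, RNA was extracted with a Qiagen kit and labelled by a 3′ IVT kit, so signals come mainly from the 3′ end of transcripts. The mean linear signal without the top and bottom 2% of probe sets was 497 on both arrays, so the authors' scaling was kept. Probe sets were named from the platform annotation of 2016, checked by gene identifier against RefSeq GRCm38.p6: 34945 had 1 symbol (34741 matched, 0 changed), 932 several and 9160 none, and the last kinds were left out. The brightest probe set by mean log2 signal stands for a gene. On the control array 51.4% of probe sets were above the floor, and 53.6% on the HDAC9 siRNA array.

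Named were all members, the other class IIa genes, up to 4 genes with the largest differences in each of 26 lists and every listed gene past 2-fold; any other gene is a marker or subunit named after its value was seen. Members and lists were chosen with earlier results of these data known. No likeness of pattern was sought, since 2 arrays give 1 difference per gene. A planned comparison of proteins was not run. The number of arrays limits the precision, and no standard deviation, test or p-value was computed. Calculations used Python 3.11.15, pandas 2.3.3, numpy 2.4.6 and statsmodels 0.14.6. The steps were tested on simulated data in which shifts past 2-fold were put into genes well above the floor. That test does not cover bounds or differences as small as those of the members. Alternatives were 3 scalings (median centring, quantile, loess spanning 0.3), a lower floor (75th percentile) and a higher one (99th), a pseudocount of 1 in place of the floor, the median of a gene's probe sets, no _s_at, _x_at or _a_at probe sets, and thresholds of 1.5-fold and 3-fold.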

Additional observations from a re-analysis of the deposited data

How the results depend on the processing

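No paired analysis was possible because each group had 1 array, and no replicate could be left out. The alternatives were planned. Of 87 member values under them, counted per probe set and again per gene, 83 moved by less than the 0.29 scatter. The other 4, all of Hdac8, moved by more. Most gene values repeat that of the brightest probe set, and a change of floor cannot move members far above it. Hdac8 at the higher floor and Hdac3 without _s_at, _x_at and _a_at probe sets had no value and were not counted. The 87 values thus hold far fewer separate checks. The count of members past 2-fold was 0 of genes and 0 of probe sets. It was also 0 at 1.5-fold and 3-fold, which 10.5% and 0.133% of all genes passed. At the floor's lower setting, the 75th percentile, it was 1 gene and 1 probe set (Hdac8), and 5.73% of all genes above that floor passed. Without a floor it was 1 gene and 3 probe sets, and 19.8% of all genes passed. The share of all probe sets was not computed at these settings. Centring each array on the median of all probe sets, many of them below the floor, moved the median of all genes from 0.03 to -0.12. It gave -0.21 for the members, and Hdac3 was at -0.13; Hdac1, Hdac2 and Hdac6 stayed below 0 and Hdac10 above 0 under each scaling. Other list medians after centring were -0.013 for NuRD, -0.24 for SIN3, -0.0033 for CoREST, -0.12 for cohesin, -0.24 for HDAC6 substrates, -0.15 for polyamine genes, 0.018 for acetyltransferases, -0.014 for bromodomain genes, -0.12 for inhibitor-raised genes, -0.26 for sirtuins, -0.15 for macrophage, -0.32 for mesothelial and 0.28 for fibroblast markers. By the median over probe sets SIN3 was at 0.12, HDAC6 substrates at 0.14 and mesothelial markers at -0.29. Without _s_at, _x_at and _a_at probe sets the sirtuins were at 0.15 and fibroblast markers at 0.58. Apart from centring's common shift, the cause was not tested. Of 576 values of other named genes, 553 stayed within the scatter, 23 moved by more and 0 past 2-fold changed sign. Signal over background limits Hdac8, Hdac11 and Hdac9, whose differences are bounds or not given.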
